A study of Mus musculus with 11 samples.

Results

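The haematopoietic cytokine receptors are the cell surface proteins through which blood-forming cells read stem cell factor, FLT3 ligand, angiopoietin, the colony-stimulating factors, erythropoietin and the interleukins. They were taken here as the 9 genes *Kit*, *Flt3*, *Tek*, *Csf1r*, *Csf3r*, *Csf2rb*, *Epor*, *Il6st* and *Il1r1*, found by symbol among the 12647 genes of the RNA-seq count table, and all 9 were present. RNA was sequenced from Lin-Sca1+Kit+ cells (LSKs), the bone marrow fraction that holds haematopoietic stem cells and the earliest progenitors, with 3 libraries of each of 3 genotypes on a C57BL/6 background. The p53+/+ mice, the wild-type of the study, carried a humanized p53 knock-in allele. The p53R248W/+ mice carried 1 copy of that allele with the hot-spot substitution R248W, driven from the mouse *Trp53* promoter, beside 1 wild-type copy, and the p53-/- mice lacked p53. The study describes its mice as young and free of tumours, and the labels name no treatment. Each library is called by its genotype and by the replicate number of its label. The labels do not say whether the 3 libraries of a genotype came from separate mice. By the Y-linked transcripts given below, those of p53+/+ and those of p53R248W/+ did not all come from a single mouse. The p-values measure the spread between these libraries, which may be partly technical.

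These receptors fall into families by how they signal. Kit, Flt3, Csf1r and Tek are receptor tyrosine kinases, which phosphorylate themselves when a ligand brings them together and then activate the RAS and PI3K pathways. Csf3r, Csf2rb, Epor and Il6st are class I cytokine receptors, which have no kinase of their own and rely on bound JAK kinases and STAT factors. Il1r1 belongs to the Toll and interleukin-1 receptor superfamily and signals through Myd88 to NF-kB.

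Between the genotypes, the receptors did not pass the test. None of the 9 had an adjusted p below 0.05 in any comparison (edgeR's quasi-likelihood test, Benjamini-Hochberg over the 12625 genes tested). The nearest was *Csf2rb*, the beta chain shared by the receptors for GM-CSF, IL-3 and IL-5. It was lower in p53-/- than in p53+/+ LSKs, with a log2 fold change of -1.001 ± 0.26 (SE) and an adjusted p of 0.0549. Its libraries did not overlap, which held for 31.4% of all genes in this comparison. Per length of gene the mean levels in p53+/+ ran from 2.94 (*Epor*) to 230 CPM per kb (*Flt3*), and *Flt3*, *Kit* and *Csf3r* kept the first places in that order in every genotype.

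The libraries were sequenced to between 18021375 and 29750702 counts. LSK and stem cell markers such as *Ly6a* (Sca1) and *Cd34* were present in all 9 libraries, and the 8 markers of that list summed to 2338 to 2738 CPM (counts scaled to the normalised library total) in p53+/+, 2501 to 2955 in p53R248W/+ and 3034 to 3312 in p53-/-, so that the p53-/- libraries lay above all others. Of the 8, 6 had a higher estimate in p53-/- than in p53+/+, with a median log2 fold change of 0.54, 4 had an unadjusted p below 0.05 against 23.4% of all genes, and 1 passed against 3.5%, namely *Hlf*, a transcription factor of stem cells, with 171 ± 47.2 and 377 ± 35.7 CPM (SD, n = 3, adjusted p 0.0242). The 2 that were lower were *Slamf1* (CD150), with 6.58 ± 0.915 and 3.74 ± 2.28 CPM, and *Cd48*, with 370 ± 32.3 and 257 ± 46.1 CPM. The study sorts its long-term stem cells as CD150 positive and CD48 negative. The part of the make-up of the LSKs in the p53-/- values of the receptors was not tested. *Trp53* itself had 125, 207 and 376 CPM in the p53+/+ libraries, 219, 240.5 and 235 in p53R248W/+ and 129, 127 and 112 in p53-/-, so the p53-/- libraries still held *Trp53* reads and p53+/+ replicate 1 was at their level. Gene totals do not say which exons those reads came from. The humanized alleles hold human p53 sequence while the reads were aligned to the mouse genome, so how many of their reads were counted is not known. The *Trp53* totals may therefore not compare between genotypes and are a weak check of the labels. A pair of libraries stood apart. In p53+/+ replicate 2 and p53R248W/+ replicate 2 the neutrophil granule genes *Camp*, *Ltf*, *Ngp*, *S100a8* and *S100a9* summed to 3297 and 2114 CPM, against 8.0 to 118 CPM in the other 7. Transcripts of 4 Y-linked genes were present in p53+/+ replicate 2 and p53R248W/+ replicates 2 and 3, with a mean log2(CPM + 1) of 4.15 to 5.54, and were at or below 0.0700 in the other 6 libraries, which include all of p53-/-. By these transcripts the sex of the mice differed within p53+/+ and p53R248W/+, and p53-/- had libraries of 1 kind only. In bulk RNA, fewer cells of a type and less RNA per cell cannot be told apart.

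Compared per length of gene, *Flt3* had the highest level in p53+/+ LSKs, at 230 ± 26.5 CPM per kb (SD, n = 3), which placed it at the 97.0 percentile of all genes tested. *Kit* followed with 129 ± 34.7 CPM per kb and *Csf3r* with 53.1 ± 12.7 CPM per kb. The libraries of these 3 receptors did not overlap in level in any genotype. Behind them came *Csf2rb* (18.04 ± 5.24), *Csf1r* (16.4 ± 7.29) and *Il1r1* (16.2 ± 2.07 CPM per kb), whose libraries overlapped, so that no order can be read among them. *Il6st* was below those with 7.83 ± 1.65 CPM per kb. *Tek* (4.51 ± 1.08) and *Epor* (2.94 ± 0.368 CPM per kb) were lowest and overlapped each other, and *Epor* stood at the 24.8 percentile. In p53-/- LSKs the middle of the order was *Il1r1* (16.3 ± 4.06), *Csf1r* (11.6 ± 7.47) and *Csf2rb* (9.01 ± 2.502 CPM per kb), again with neighbours that overlapped.

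**Figure D1:**
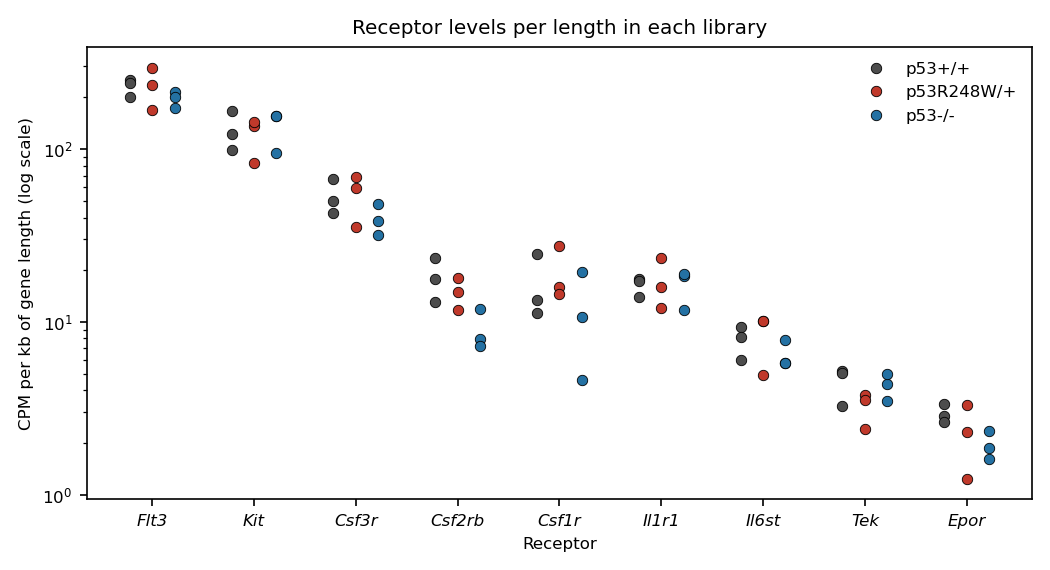
Level of each receptor in CPM per kb of gene length, on a log scale, in each of the 9 libraries; each point is a library, coloured by genotype, and the receptors are ordered by their mean in p53+/+. *Flt3*, *Kit* and *Csf3r* lie above the other receptors in all 3 genotypes, and *Epor*, with a p53+/+ mean of 2.94 CPM per kb, lies lowest.

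To show what lies upstream of the receptors with the highest and the lowest level, the 250 bases before the RefSeq start are given for *Flt3*, *Kit*, *Csf3r* and *Epor* (GRCm38.p6, each written along the strand of its gene). Capitals mark AGGAAG, the core bound by ETS factors such as PU.1, and GATAA, the core bound by GATA factors, each searched on both strands, so that CTTCCT and TTATC are the same letters read from the other strand. Of the 9 receptors, 7 had a promoter in the RefSeq table.
Flt3 (chr5:147400490-147400739, minus strand): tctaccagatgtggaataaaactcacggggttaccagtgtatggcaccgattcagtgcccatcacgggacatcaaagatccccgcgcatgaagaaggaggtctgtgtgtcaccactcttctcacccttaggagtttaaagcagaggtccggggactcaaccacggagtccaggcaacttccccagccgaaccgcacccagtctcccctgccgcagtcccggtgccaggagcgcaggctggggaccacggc
Kit (chr5:75574737-75574986, plus strand): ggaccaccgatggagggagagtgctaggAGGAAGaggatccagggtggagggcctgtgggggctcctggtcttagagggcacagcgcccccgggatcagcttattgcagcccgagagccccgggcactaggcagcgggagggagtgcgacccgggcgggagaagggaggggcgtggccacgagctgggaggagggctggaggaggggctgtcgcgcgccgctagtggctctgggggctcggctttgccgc
Csf3r (chr4:126024409-126024658, plus strand): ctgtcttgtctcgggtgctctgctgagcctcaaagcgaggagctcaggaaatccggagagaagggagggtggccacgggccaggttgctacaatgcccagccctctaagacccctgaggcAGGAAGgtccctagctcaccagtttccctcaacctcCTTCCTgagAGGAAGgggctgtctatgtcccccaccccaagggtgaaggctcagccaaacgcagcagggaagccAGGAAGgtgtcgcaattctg
Epor (chr9:21963577-21963826, minus strand): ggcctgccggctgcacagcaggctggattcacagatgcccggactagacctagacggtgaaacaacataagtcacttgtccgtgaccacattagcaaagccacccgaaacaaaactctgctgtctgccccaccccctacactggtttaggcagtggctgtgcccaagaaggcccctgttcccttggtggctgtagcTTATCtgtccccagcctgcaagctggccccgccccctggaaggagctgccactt
*Csf3r* had 4 matches to AGGAAG, beginning 130, 94, 85 and 20 bases before the start. Of 32851 promoters of the same length, 29.5% held at least 1 match and 0.268% held as many as 4. That count was the highest among the 7 receptors, so the share is that of a picked extreme. The CCAAT box, the STAT motif TTCNNNGAA (N, any base) and the GC box GGGCGG were searched too and are not marked. The most matches in a receptor were 2, 0 and 1 for these. *Kit* had 1 match, 222 bases before its start, and *Flt3* and *Epor* had none. *Epor* had the only GATAA match among the 7 receptors, 54 bases before its start, where 22.6% of all promoters held one. For *Csf3r* and *Kit* the longest gene model of GENCODE M21 begins inside the stretch shown. A match of letters is not a binding site, and these data hold no measurement of such factors at these places.

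*Kit*, on chromosome 5 (GRCm38, 75574916 to 75656722, plus strand), encodes the receptor for stem cell factor and is one of the surface markers by which the LSKs were sorted, so its presence in every library follows from the gate. Its level was 629.7, 861 and 507 CPM in p53+/+ replicates 1 to 3, 427, 704 and 743 CPM in p53R248W/+, and 807, 493 and 805 CPM in p53-/-. The 3 genotypes overlapped. The log2 fold change was -0.09 ± 0.27 (SE) for p53R248W/+ against p53+/+, with a 95% interval from -0.68 to 0.50. Against the same controls it was 0.08 ± 0.27 for p53-/-, with an interval from -0.51 to 0.66. The adjusted p was 1.00 and 0.892. As ratios, the intervals run from 0.624 to 1.41 and from 0.701 to 1.58, so changes within them cannot be told from none.

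*Flt3*, on chromosome 5 (147330741 to 147400489, minus strand), encodes the FLT3 ligand receptor of multipotent progenitors and lymphoid-primed cells. It had 920.1, 873 and 734 CPM in p53+/+, 614, 859 and 1079 CPM in p53R248W/+ and 631, 783 and 727 CPM in p53-/-. It spanned the widest range in p53R248W/+, where replicate 1 was the lowest and replicate 3 the highest of all 9 libraries. Its log2 fold change was 0.01 ± 0.20 in p53R248W/+ and -0.24 ± 0.20 in p53-/-, with 95% intervals from -0.43 to 0.46 and from -0.69 to 0.21 and adjusted p of 1.00 and 0.513. Those were the narrowest intervals of the 9 receptors. *Flt3l*, the gene of its ligand, was low, at 7.17 ± 0.460, 7.64 ± 2.45 and 8.72 ± 0.551 CPM in p53+/+, p53R248W/+ and p53-/- (SD, n = 3).

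*Tek*, on chromosome 4 (94739289 to 94874976, plus strand), encodes Tie2, the angiopoietin receptor of endothelium and of quiescent stem cells. Its libraries held 24.4, 23.9 and 15.3 CPM in p53+/+, 11.3, 17.8 and 16.5 CPM in p53R248W/+, and 20.6, 16.4 and 23.3 CPM in p53-/-. The p53R248W/+ libraries were on the low side but overlapped p53+/+ through replicate 3 of the latter. The difference was the largest of the receptors in p53R248W/+ against p53+/+, with a log2 fold change of -0.48 ± 0.26, an interval from -1.05 to 0.09, an unadjusted p of 0.0921 and an adjusted p of 1.00. In p53-/- it was -0.08 ± 0.26, with an interval from -0.65 to 0.49. *Angpt1*, the gene of the activating ligand, was itself well expressed in LSKs, at 320.0 ± 37.1, 308 ± 40.3 and 270.1 ± 58.5 CPM in p53+/+, p53R248W/+ and p53-/-. Endothelial and stromal markers, of which 3 of 8 were in the table, summed to 109 to 151 CPM in p53+/+, 96.7 to 158 in p53R248W/+ and 47.3 to 75.8 in p53-/-. Nearly all of that sum was *Pecam1*, with 123 ± 22.1 CPM in p53+/+ and 63.1 ± 17.03 CPM in p53-/- (log2 fold change -0.96, adjusted p 0.0539), while *Cldn5* and *Stab2* had means between 0.555 and 1.65 CPM and higher estimates in p53-/-. The part of endothelial cells in the *Tek* values was not tested.

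*Csf1r*, on chromosome 18 (61100598 to 61132149, plus strand), encodes the macrophage colony-stimulating factor receptor, a mark of the monocyte lineage. Its values were 43.2, 95.8 and 51.6 CPM in p53+/+, 61.6, 106 and 55.8 CPM in p53R248W/+, and 41.3, 17.9 and 75.5 CPM in p53-/-. Of the receptors it had the widest spread in p53+/+ and p53-/-, with a coefficient of variation of 44.4% and 64.5%, while in p53R248W/+ it had 37.0% and *Epor* had the widest, 45.1%. The log2 fold changes were 0.23 ± 0.45 for p53R248W/+ and -0.50 ± 0.45 for p53-/-, with intervals from -0.76 to 1.22 and from -1.49 to 0.49, so a 2-fold higher level lies inside the first and a 2-fold lower level inside the second. Without the 2 libraries rich in granule transcripts, in which *Csf1r* was highest, the value for p53-/- was -0.08. An exon of *Csf1r* overlaps *Hmgxb3* on the opposite strand, and no strand setting of the counting is stated, so the reads of that overlap cannot be assigned.

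*Csf3r*, on chromosome 4 (126024550 to 126044440, plus strand), encodes the G-CSF receptor that drives neutrophil production. It had 171, 272 and 201 CPM in p53+/+, 143, 277 and 242 CPM in p53R248W/+, and 156, 129 and 195 CPM in p53-/-. The p53-/- libraries lay in the lower part of the range but overlapped both other genotypes. Against p53+/+, the log2 fold change was -0.43 ± 0.26 in p53-/- (95% interval from -0.999 to 0.15, adjusted p 0.350) and 0.04 ± 0.26 in p53R248W/+ (from -0.53 to 0.61, adjusted p 1.00). The 2 highest values were again those of the granule-rich libraries, and without them the log2 fold change in p53-/- was -0.22.

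*Csf2rb*, on chromosome 15 (78325752 to 78353847, plus strand), had 61.7, 112 and 84.6 CPM in p53+/+, 55.7, 85.1 and 70.8 CPM in p53R248W/+, and 37.9, 34.4 and 56.6 CPM in p53-/-. Every p53-/- library was below every p53+/+ library, while p53R248W/+ overlapped both. Of all genes, 31.4% had no overlap between p53-/- and p53+/+. The mean was 86.0 ± 24.98 CPM in p53+/+ and 43.0 ± 11.9 CPM in p53-/- (SD, n = 3), and the fitted ratio was 0.500 with a 95% interval from 0.336 to 0.742. Its unadjusted p was 0.00245. Against p53-/-, *Csf2rb* in p53R248W/+ had a log2 fold change of 0.71 ± 0.26 (interval from 0.15 to 1.28, adjusted p 0.142), and against p53+/+ it had -0.29 ± 0.26 (interval from -0.85 to 0.28, adjusted p 1.00).

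The call for *Csf2rb* depended on the fit. Over 21 alternatives, the log2 fold change in p53-/- ran from -1.25 to -0.77 and the adjusted p from 0.00540 to 0.212, and it passed in 6. It passed without p53+/+ replicate 1 (-1.19, adjusted p 0.0390) and without p53R248W/+ replicate 1 (-0.99, adjusted p 0.0231). Without the 2 granule-rich libraries it was -0.77 (adjusted p 0.212). The 6 libraries without Y-linked transcripts gave the same value, because their p53+/+ and p53-/- libraries are the same, without p53+/+ replicate 2. The 2 sets are not separate checks here. Over the same genotypes the 14 granulocyte and monocyte markers summed to 2482 to 7344 CPM in p53+/+, 3924 to 9136 in p53R248W/+ and 1633 to 2175 in p53-/-, and 13 of the 14 had a lower estimate in p53-/- than in p53+/+. Of these markers *F13a1*, the coagulation factor gene of monocytes, passed, with a log2 fold change of -2.70 (adjusted p 0.0124). The part of such cells in the *Csf2rb* difference was not tested.

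The partners of *Csf2rb* gave mixed values. *Csf2ra*, the alpha chain that binds GM-CSF, had 43.7 ± 7.22 CPM in p53+/+ and 24.9 ± 2.93 CPM in p53-/-, with a log2 fold change of -0.82 and an adjusted p of 0.0742. Its libraries did not overlap, which held for 31.4% of all genes in this comparison. *Il3ra*, the alpha chain for IL-3, had 19.1 ± 2.42 and 19.3 ± 1.28 CPM, with a log2 fold change of 0.02 ± 0.20. *Csf2rb2*, the mouse paralog that serves IL-3 alone, had 12.1 ± 5.06 and 7.89 ± 1.06 CPM and a log2 fold change of -0.62 (adjusted p 0.267). *Csf2rb* and *Csf2rb2* share 17.1% of the 50-base windows of *Csf2rb*, so reads could have been split between them or dropped. With the counts of the pair summed, the log2 fold change was -0.95 (adjusted p 0.0554).

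*Epor*, on chromosome 9 (21958897 to 21963506, minus strand), encodes the erythropoietin receptor of erythroid progenitors. It was low in all libraries, with 5.19, 4.83 and 6.13 CPM in p53+/+, 2.26, 6.02 and 4.21 CPM in p53R248W/+, and 2.94, 4.25 and 3.39 CPM in p53-/-. As for *Csf2rb*, every p53-/- library was below every p53+/+ library, where 31.4% of all genes had no overlap. The log2 fold change was -0.61 ± 0.39 with an interval from -1.46 to 0.24 and an adjusted p of 0.372, and in p53R248W/+ it was -0.37 ± 0.39 (from -1.22 to 0.47, adjusted p 1.00). The 6 erythroid markers in the table summed to 797 to 1011 CPM in p53+/+, 822 to 983 in p53R248W/+ and 1300.0 to 1627 in p53-/-. The higher sum in p53-/- was that of *Car2*, a carbonic anhydrase gene, which rose from 791 ± 119 to 1429.9 ± 153 CPM (adjusted p 0.0289). Of the 6 markers, 4 had a lower estimate in p53-/- than in p53+/+, as *Epor* did, and the median log2 fold change was -0.70. *Tfrc*, the transferrin receptor, fell from 39.1 ± 6.55 to 8.97 ± 2.4997 CPM (adjusted p 0.00312), and *Gata1*, the erythroid transcription factor, had 16.9 ± 3.03 and 9.44 ± 1.59 CPM (adjusted p 0.0965). The globin genes were not among the 6, and the part of erythroid cells in the *Epor* values was not tested.

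*Il6st*, on chromosome 13 (112464070 to 112510086, plus strand), encodes gp130, the signal chain shared by the receptors for IL-6, IL-11, LIF and oncostatin M. The libraries had 32.9, 50.5 and 44.7 CPM in p53+/+, 26.7, 55.1 and 55.3 CPM in p53R248W/+, and 43.0, 31.5 and 31.5 CPM in p53-/-. All genotypes overlapped. Its log2 fold change was -0.27 ± 0.28 in p53-/- (from -0.89 to 0.34, adjusted p 0.592) and 0.10 ± 0.28 in p53R248W/+ (from -0.51 to 0.71, adjusted p 1.00). *Il6ra*, which brings IL-6 to gp130, had 27.4 ± 3.56 CPM in p53+/+ and 19.6 ± 0.810 CPM in p53-/-. Its libraries did not overlap, which held for 31.4% of all genes in this comparison. The log2 fold change was -0.49 and the adjusted p 0.245.

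*Il1r1*, on chromosome 1 (40225080 to 40317257, plus strand), encodes the receptor for IL-1, an inflammatory cytokine that pushes stem cells towards myeloid output. It had 69.6, 88.8 and 86.3 CPM in p53+/+, 60.3, 79.6 and 117 CPM in p53R248W/+, and 93.1, 58.6 and 94.8 CPM in p53-/-. The means of the genotypes lay between 81.6 and 85.7 CPM. The log2 fold change was 0.07 ± 0.26 in p53R248W/+ (from -0.49 to 0.63) and 0.01 ± 0.26 in p53-/- (from -0.55 to 0.57). *Il1rap*, the accessory chain that *Il1r1* needs to signal, had 22.6 ± 5.39, 18.4 ± 2.55 and 23.6 ± 5.07 CPM in p53+/+, p53R248W/+ and p53-/-.

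**Figure D2:**
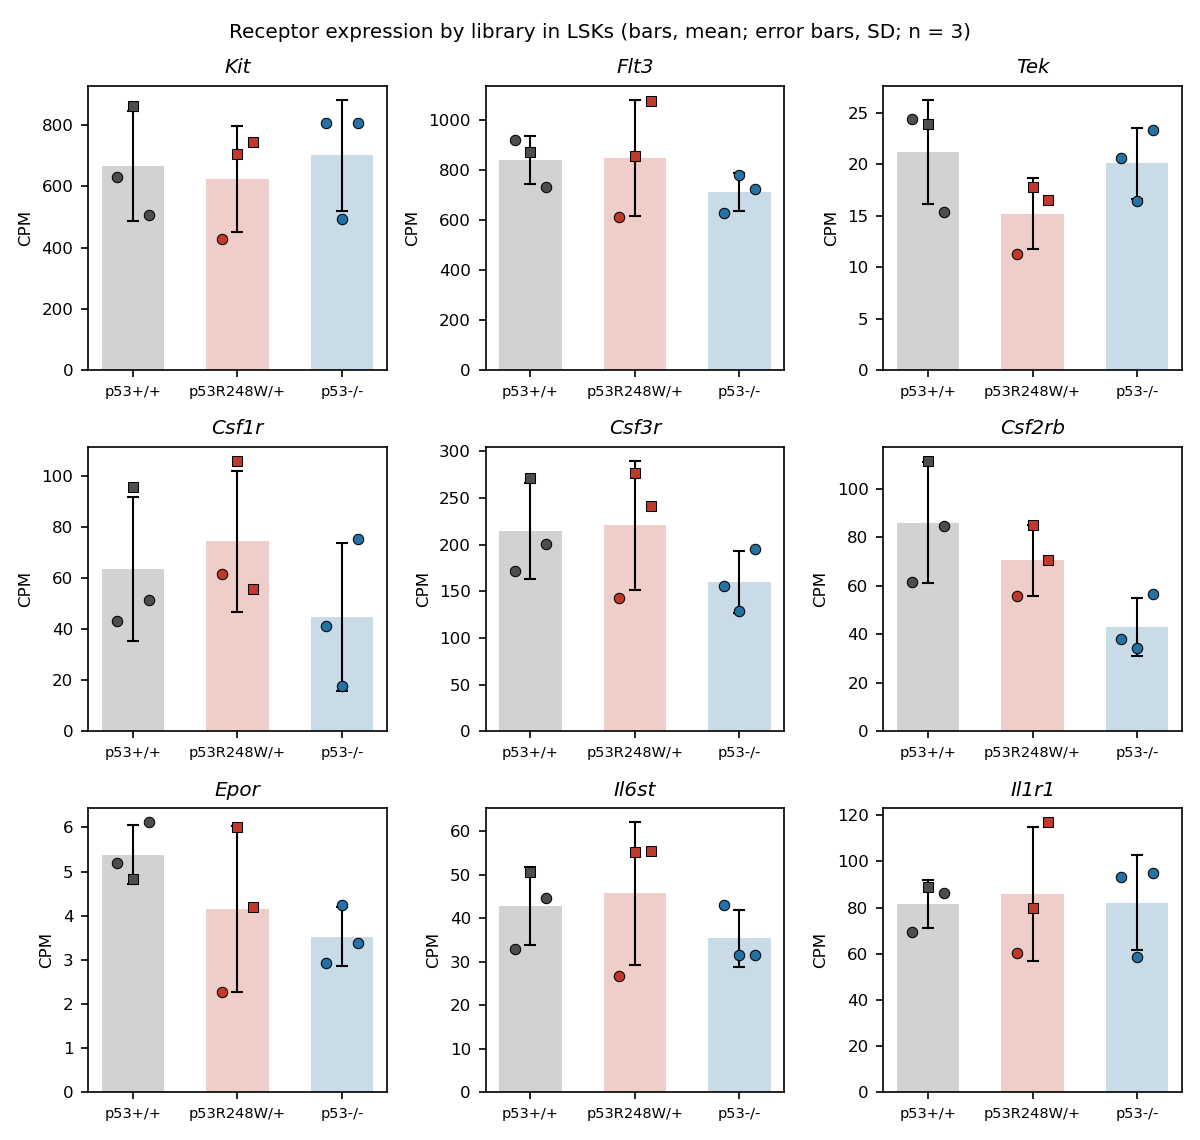
Expression of the 9 receptors in LSKs in CPM, a panel each; bars are means and error bars SD of 3 libraries a genotype, and each point is a library, drawn as a square where Y-linked transcripts were present and as a circle where they were not. The p53-/- points lie below all p53+/+ points for *Csf2rb* (34.4 to 56.6 against 61.7 to 112 CPM) and *Epor* and overlap them for the other 7. Of all genes, 31.4% did not overlap in this comparison.

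The calls among the receptors were also counted as a group, beside the share of all genes. In p53R248W/+ against p53+/+, 0 of 9 passed at an adjusted p below 0.05, where 0.00792% of all genes did, 0 of 9 had an unadjusted p below 0.05 against 0.958% of all genes, and 0 of 9 had libraries that did not overlap against 5.04%. In p53-/- against p53+/+, 0 of 9 passed against 3.5% of all genes, 1 (*Csf2rb*) had an unadjusted p below 0.05 against 23.4%, and 2 (*Csf2rb* and *Epor*) did not overlap against 31.4%. In p53R248W/+ against p53-/-, 0 of 9 passed against 3.44%, 1 (*Csf2rb*) had an unadjusted p below 0.05 against 21%, and 0 did not overlap against 24.2%. With so few members these shares are no result about the receptors. DESeq2 passed 0, 1 (*Csf2rb*) and 0 of the 9 in the 3 comparisons, where it passed 0.0475%, 12.2% and 10.5% of all genes. By limma-voom none of the 9 passed, against 0.00792%, 2.35% and 2.64% of all genes.

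The estimates leaned to lower values in p53-/-. In that genotype 7 of the 9 receptors had a lower estimate than in p53+/+ and 2 a higher one, with a median log2 fold change of -0.27 where that of all genes was -0.00. Without the 2 granule-rich libraries the division was 6 lower to 3 higher and the median -0.14. The 6 libraries without Y-linked transcripts gave the same numbers, because they hold the same p53+/+ and p53-/- libraries, so they are no separate check. Over 20 alternatives, 6 to 9 were lower and the median ran from -0.43 to -0.11. In p53R248W/+ against p53+/+ the receptors divided 5 higher to 4 lower, with a median of 0.01, equal to that of all genes. Against p53-/-, p53R248W/+ had 7 higher and 2 lower, with a median of 0.25 beside 0.02 for all genes, with estimates from -0.40 (*Tek*) to 0.73 (*Csf1r*) and adjusted p from 0.142 to 0.921, and this comparison shares its p53-/- libraries with the first. Among the 6 libraries without Y-linked transcripts, where p53R248W/+ has replicate 1 alone, 8 of the 9 receptors had a lower estimate in p53R248W/+ than in p53+/+, *Csf1r* being the exception. In the same 6 libraries the division in p53R248W/+ against p53-/- turned to 2 higher (*Csf1r* at 0.45 and *Csf2rb* at 0.36) and 7 lower, with a median of -0.42, and when a term for the Y-linked transcripts was fitted it was also 2 to 7, with a median of -0.06.

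**Figure D3:**
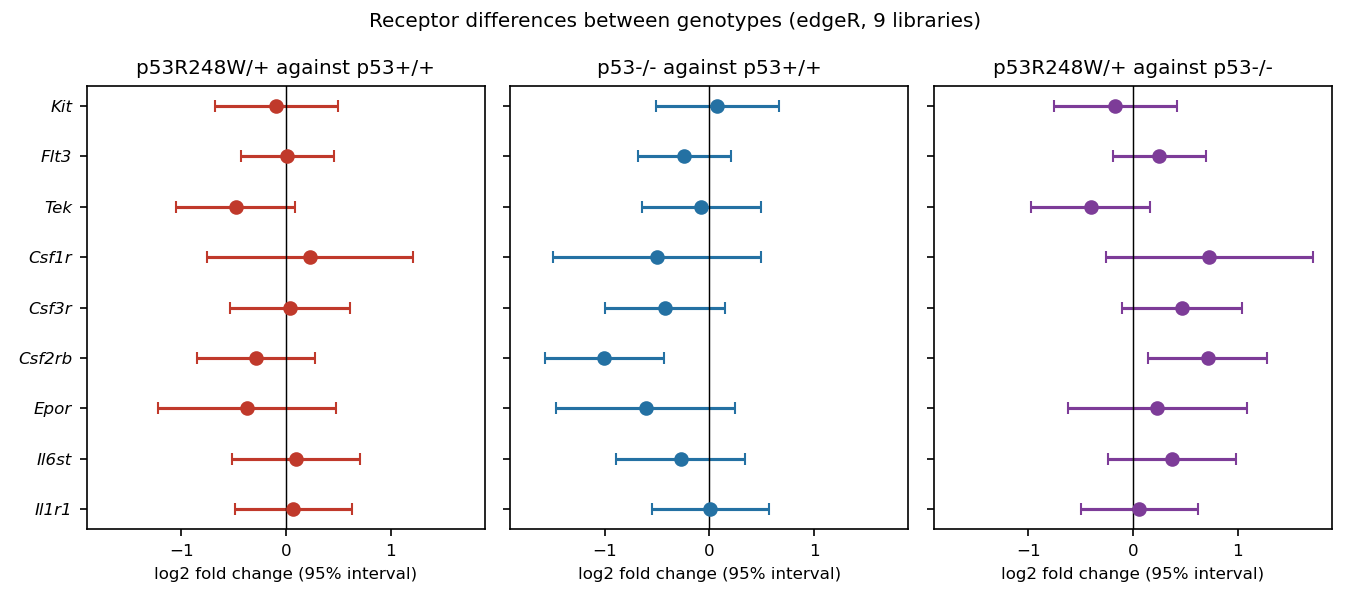
Log2 fold change of each receptor in the 3 comparisons from edgeR on all 9 libraries; points are estimates and bars 95% intervals. The interval excludes 0 only for *Csf2rb* in p53-/- against p53+/+ (-1.57 to -0.43) and in p53R248W/+ against p53-/- (0.15 to 1.28).

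Part of the spread ran along libraries. Within a genotype, several receptors were low or high in the same library. Replicate 1 of p53R248W/+, the most deeply sequenced library, had the lowest value of its genotype for 8 of the 9 receptors and the lowest of all 9 libraries for 5. In p53-/- replicate 2, 7 receptors were lowest in their genotype and 4 lowest of all. In p53+/+ replicate 2, 6 were highest in their genotype. The median coefficient of variation of the receptors was 24.0% in p53+/+, 31.4% in p53R248W/+ and 20.9% in p53-/-, above the 15.7%, 19.3% and 15.7% of all genes over 8 CPM. Among the p53+/+ and p53R248W/+ libraries, *Kit*, *Csf3r* and *Il6st* were higher in all 3 with Y-linked transcripts than in the 3 without, and the other 6 receptors overlapped. The share of all genes that separate these libraries was not computed, so this count is no result about the receptors. *Csf1r*, *Csf3r* and *Csf2rb* were higher in both granule-rich libraries than in any of the other 7, *Csf2rb* by a narrow margin (85.1 against 84.6 CPM). How many of all genes do the same was not computed either, so this too is no result about the receptors. Without these 2 libraries, the log2 fold change of *Kit* in p53-/- against p53+/+ was 0.30 and that of *Epor* in p53R248W/+ against p53+/+ was -0.82, neither past the threshold. The part of sex, of granulocyte RNA and of depth in these values was not tested.

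**Figure D4:**
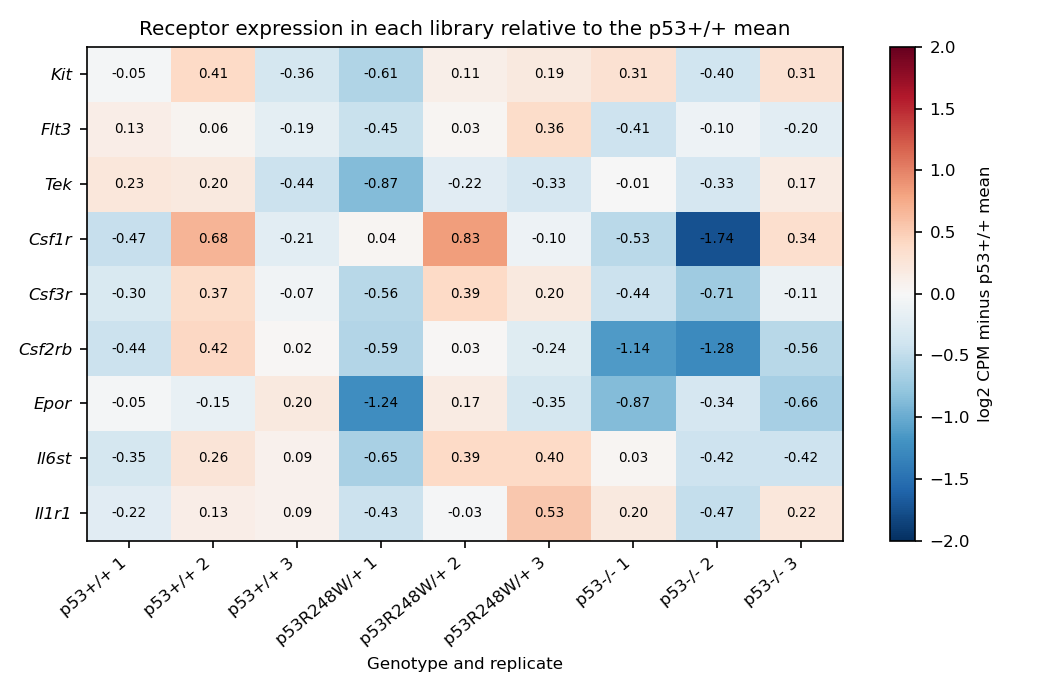
Log2 CPM of each receptor in each library minus its p53+/+ mean; red is above and blue below that mean, and the number in each cell is the difference. The columns of p53R248W/+ replicate 1 and p53-/- replicate 2 are mostly blue, from 0.04 down to -1.24 and from -0.10 down to -1.74.

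Genes around the receptors were read from 5 lists. Of 23 ligands and antagonists, 9 were measured and 0 passed in any comparison, with 0 at an unadjusted p below 0.05 and 0 by DESeq2 or limma-voom. *Kitl*, *Csf3* and *Epo*, the ligand genes of *Kit*, *Csf3r* and *Epor*, were not among the 9. Of 36 JAK, STAT, RAS and adaptor genes that carry the signal inwards, 0 passed in any comparison by edgeR and limma-voom. In p53R248W/+ against p53+/+, in p53-/- against p53+/+ and in p53R248W/+ against p53-/-, the unadjusted p was below 0.05 for 0, 5 and 5 of them, where it was so for 0.958%, 23.4% and 21% of all genes. DESeq2 passed 0, 2 and 2 of them, where it passed 0.0475%, 12.2% and 10.5% of all genes. These counts were no result about the transducers.

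Of the partner and related receptors reported here, 28 were measured and 0 passed in any comparison by edgeR or limma-voom. In the same order of comparisons, 1, 3 and 7 of them had an unadjusted p below 0.05 (0.958%, 23.4% and 21% of all genes), and DESeq2 passed 0, 3 and 3 (0.0475%, 12.2% and 10.5% of all genes). None of these counts is a result about the list. The median log2 fold change of the list was 0.05 in p53R248W/+ against p53+/+, beside 0.01 for all genes.

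Of the 5 lists, the negative regulators gave the most calls. Of 30 measured, 2 rose and 1 fell in p53-/- against p53+/+, where 3.5% of all genes passed. Of the 30, 9 had an unadjusted p below 0.05 (23.4% of all genes), and DESeq2 passed 6 (12.2%). Set beside p53-/-, 1 rose and 3 fell in p53R248W/+, where 3.44% of all genes passed, 11 had an unadjusted p below 0.05 (21%), and DESeq2 passed 8 (10.5%). With so few calls these shares are no result about the list. *Socs5*, a suppressor of cytokine signalling, rose from 29.9 ± 4.19 to 56.7 ± 5.62 CPM, with a log2 fold change of 0.92 ± 0.19 (adjusted p 0.0276). *Dusp6*, the phosphatase that switches off ERK, rose from 83.9 ± 33.4 to 175 ± 17.3 CPM, with 1.06 ± 0.24 (adjusted p 0.0386). *Ptprc* (CD45), a phosphatase of JAK and SRC kinases found on all white blood cells, fell from 284 ± 51.1 to 149 ± 28.4 CPM, with -0.93 ± 0.20 (adjusted p 0.0348). Set against p53-/-, p53R248W/+ gave the reverse for all of them, with *Socs5* at -0.93 (adjusted p 0.0253), *Dusp6* at -1.27 (0.0224), *Ptprc* at 0.93 (0.0353), and also *Spred2*, an inhibitor of RAS signalling, at -1.03 (0.0435). The 2 comparisons share the p53-/- libraries. In p53R248W/+ against p53+/+ none of the 30 passed and none had an unadjusted p below 0.05, and DESeq2 and limma-voom passed none.

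Among 25 measured target genes of these pathways, *Fos*, the immediate early gene downstream of ERK, fell in p53-/- against p53+/+ by 3.27 ± 0.66 on the log2 scale (adjusted p 0.0274), from 1267, 1043 and 259 CPM to 97.98, 91.7 and 76.7 CPM. *Etv5*, another ERK target, was lower in p53R248W/+ than in p53-/-, with a log2 fold change of -1.20 ± 0.23 (adjusted p 0.0224). *Fos* was higher there by 3.70 ± 0.67 (adjusted p 0.0186), with 2118, 288 and 1060.0 CPM in p53R248W/+. So *Fos* had the opposite sign to *Dusp6* and *Etv5*, which are ERK-linked too. In the target list, *Egr1* (280 ± 196 and 81.6 ± 18.8 CPM in p53+/+ and p53-/-), *Junb* (180 ± 56.8 and 82.9 ± 17.9) and *Dusp5* had lower means in p53-/-, as *Fos* did. *Dusp4* and *Spry4* had higher means. By edgeR only *Fos* and *Etv5* of the list passed. Of the 25, 7 in p53-/- against p53+/+ and 8 in p53R248W/+ against p53-/- had an unadjusted p below 0.05 (23.4% and 21% of all genes), and DESeq2 passed 3 and 4 (12.2% and 10.5%). None of the 25 passed in p53R248W/+ against p53+/+, where 1 had an unadjusted p below 0.05 and DESeq2 and limma-voom passed none. The median log2 fold change of the target list in p53-/- was -0.02, beside -0.00 for all genes.

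**Figure D5:**
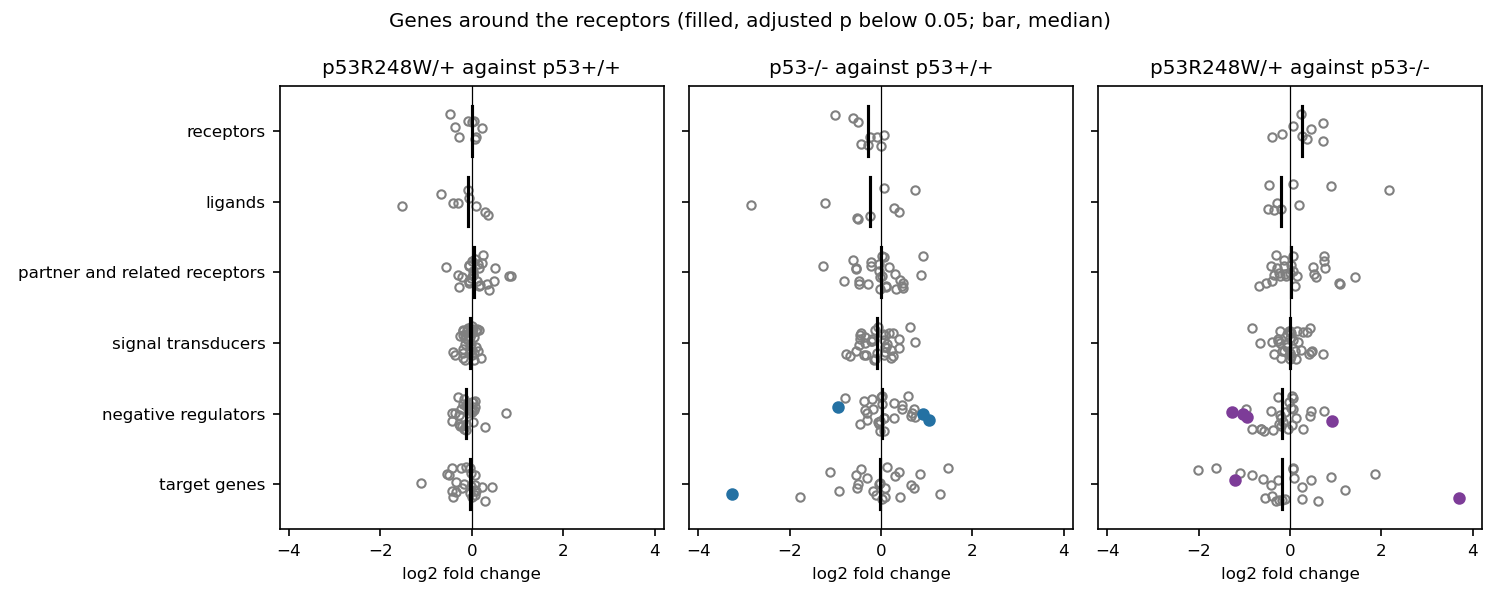
Log2 fold changes of the receptors and of the 5 surrounding gene lists in the 3 comparisons; each point is a gene, filled where its adjusted p is below 0.05, and the bar is the median of the list. No point is filled in p53R248W/+ against p53+/+, and the receptors have none filled in any comparison.

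Most of these calls were lost when a library was left out, while the fold changes kept much of their size. Over all 21 alternatives, the log2 fold changes in p53-/- against p53+/+ ran from 0.86 to 1.05 for *Socs5*, 0.88 to 1.43 for *Dusp6*, -1.03 to -0.78 for *Ptprc* and -3.70 to -2.87 for *Fos*. They ran in p53R248W/+ against p53-/- from -1.20 to -0.85 for *Socs5*, -1.37 to -1.06 for *Dusp6*, 0.63 to 1.03 for *Ptprc*, -1.50 to -0.87 for *Spred2*, -1.70 to -1.03 for *Etv5* and 2.89 to 4.56 for *Fos*. In p53-/- against p53+/+, *Socs5* was lost without any single p53+/+ or p53-/- library (adjusted p from 0.0544 to 0.140), *Dusp6* without p53+/+ 2 or 3, p53R248W/+ 2 or 3 or any p53-/- library (0.0534 to 0.165), *Ptprc* without p53+/+ 2 or 3 or any p53-/- library (0.0741 to 0.122), and *Fos* without p53+/+ 2 or any p53-/- library (0.0731 to 0.0943). In p53R248W/+ against p53-/-, *Fos* was lost without any p53-/- library (0.0679 to 0.0740), *Etv5* without p53R248W/+ 2 or p53-/- 2 or 3 (0.0640 to 0.0775), *Socs5* without p53R248W/+ 2 or 3 or p53-/- 2 or 3 (0.0710 to 0.0946), *Dusp6* and *Ptprc* without p53R248W/+ 2 or 3 or any p53-/- library (0.0555 to 0.131), and *Spred2* without any library but p53R248W/+ 1 (0.0574 to 0.130). Other fits also ended calls. In p53-/- against p53+/+, *Socs5*, *Ptprc* and *Dusp6* were lost without the granule-rich libraries (0.0944, 0.153 and 0.157). *Ptprc* and *Dusp6* were also lost in the libraries without Y-linked transcripts, which hold the same p53+/+ and p53-/- libraries. In p53R248W/+ against p53-/-, *Ptprc* (0.64 on the log2 scale, 0.0997) and *Dusp6* (0.0716) were lost with the Y-linked covariate, and *Socs5*, *Ptprc* and *Spred2* in the fit of 6 libraries (0.0505, 0.0561 and 0.0858). There *Socs5*, *Dusp6*, *Ptprc* and *Spred2* were lost as well without the granule-rich libraries (0.0834 to 0.177) and in those without Y-linked transcripts (0.119 to 0.287), and *Etv5* without the granule-rich libraries (0.0798). The direction was the same in all 21 alternatives for each of them.

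As a description over the 9 libraries, the genes whose log2 CPM ran most closely with a receptor, among 9795 genes with an average log2 CPM of at least 3, were *Thada* and *Numb* for *Kit* (Pearson r of 0.98 for both), *Jakmip1* and *Slc26a11* for *Flt3* (0.95 and 0.93), *Dock11* and *Add3* for *Csf3r* (0.98 for both), and *Cul1* and *Selplg* for *Csf2rb* (0.98 and 0.97). For *Il6st* they were *Cep120* and *Epb4.1l2* (0.99 and 0.97), for *Csf1r* *Zfp729a* and *Parvg* (0.98 for both), for *Tek* *Fgd4* and *Tm9sf4* (0.95 and 0.94), for *Epor* *Ift81* and *Znrf3* (0.94 for both), and for *Il1r1* *Arhgap32* and *Mtmr10* (0.92 and 0.91). The points share their library and its depth, and r was the highest of many.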

How the data were processed

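Gene expression was measured by RNA-seq in LSKs of 3 genotypes, 9 libraries in all. The labels name a SMART-Seq kit, and the methods describe oligo(dT) selection and random hexamers. Per the submitters' processing notes, STAR 2.5.2b, Subread 1.5.0 (featureCounts) and edgeR were used with mm10. The strand and multiple-mapping settings are not given in the sources used here. The deposited table holds raw counts per gene made by the authors, with a gene length, which was used for CPM per kb. The lowest total of a gene was 37 counts, so lower genes are not in the table. Columns of the authors' own comparisons, deposited as log2 ratios and as a p-value with its adjusted form, were not used. Columns not mapped to a sample numbered 0. The H3K27me3 ChIP-seq files were not analysed here.

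Counts were filtered with filterByExpr, scaled by TMM (factors 0.935 to 1.04) and tested with edgeR 4.0.16 (R 4.3.3), in 1 quasi-likelihood fit of all 9 libraries with a term for each genotype and Benjamini-Hochberg adjustment over 12625 genes, with a threshold of 0.05. The biological coefficient of variation was 0.281, and library totals had a median of 20116602 counts, which gives the low *Epor* the least counting precision. Scripts were tested on simulated data. DESeq2 1.42.0, limma-voom (limma 3.58.1), other scaling and filters (none, or at least 10 counts in every library), a block on replicate number, a Y-linked covariate, a fit of the 6 libraries compared and leaving out each library were the alternatives. Alternatives chosen after seeing the data were the libraries without Y-linked transcripts, those with few granule transcripts (summed CPM of the 5 genes below 1000), and *Csf2rb* summed with *Csf2rb2*. Positions are from GENCODE M21 (GRCm38) and promoters from RefSeq. The receptors and lists were chosen with earlier results of these data known. All 9 receptors are named, and of each surrounding list up to 6 genes with an adjusted p below 0.05 in any comparison, by size of change, beside direct ligands and co-receptors of a receptor whatever their values. *Egr1*, *Junb*, *Dusp5*, *Dusp4* and *Spry4* are named beside *Fos* although they did not pass by edgeR. The genes most like a receptor are the 2 with the highest r. A gene of the list of partner and related receptors is not reported here.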

Additional observations from a re-analysis of the deposited data

How the results depend on the processing

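No receptor passed in p53R248W/+ against p53+/+ or against p53-/- under any alternative run, and the levels per length stayed within 1 SD in all 108 recalculations. In p53-/- against p53+/+, 1 receptor (*Csf2rb*) passed with DESeq2, with the strict filter, in the fit of 6 libraries and with the replicate block, and 0 to 1 when a library was left out. The numbers of genes passing in p53R248W/+ against p53+/+, p53-/- against p53+/+ and p53R248W/+ against p53-/- were 1, 442 and 434. DESeq2 gave 6, 1542 and 1326, the strict filter 0 in the first, the fit of 6 libraries 894 and 208 in the other two, the Y-linked covariate 199 in the last, the libraries without Y-linked transcripts 264 and 46, and those with few granule transcripts 59 and 77. Leaving out a library gave 37 (without p53+/+ 3) to 1485 (without p53R248W/+ 1) in p53-/- against p53+/+, with 46 without p53+/+ 2, 278 and 294 without p53R248W/+ 2 and 3, and 53, 39 and 103 without p53-/- 1, 2 and 3. In p53R248W/+ against p53-/- it gave 77 (without p53R248W/+ 3) to 1559 (without p53R248W/+ 1), with 78 without p53R248W/+ 2 and 164, 100 and 102 without p53-/- 1, 2 and 3. The cause was not tested.

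With the replicate number as a block, the counts were 2, 882 and 672, *Csf2rb* in p53-/- had -0.97 (adjusted p 0.0334), and *Flt3* in p53R248W/+ against p53+/+ turned to -0.015. Deviations of same-numbered libraries correlated at 0.56, 0.72 and -8.9e-05 in p53R248W/+ against p53+/+, 0.06, -0.17 and -0.03 in p53-/- against p53+/+ and 0.11, -0.16 and 0.32 in p53R248W/+ against p53-/-, so not every pair was over 0.1 and the numbers were not taken to pair the libraries. In p53R248W/+ against p53+/+, replicates 1 and 2 correlated best with their own number and replicate 3 did not, and both replicates 2 are the granule-rich libraries. The column names of replicates 1 and 2 differ between these genotypes only in the letters of the genotype, those of replicate 3 also in a number. The p53-/- columns are named in another form. Whether like-named libraries were handled together was not tested.

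Signs turned in 53 recalculated log2 fold changes, none with an adjusted p below 0.504. In p53R248W/+ against p53+/+, the Y-linked covariate gave *Flt3* -0.16, *Csf3r* -0.21, *Il6st* -0.20 and *Il1r1* -0.14, and the libraries without Y-linked transcripts gave -0.44, -0.39, -0.55 and -0.38. In p53R248W/+ against p53-/-, *Flt3*, *Csf3r*, *Epor*, *Il6st* and *Il1r1* had -0.044, -0.026, -0.061, -0.16 and -0.31 with the covariate and -0.23, -0.17, -0.65, -0.42 and -0.46 in those libraries. Against p53+/+, *Tek* in p53-/- had 0.065 with the covariate, 0.016 in those libraries and, with few granule transcripts, 0.016. In the last set *Kit* in p53R248W/+ had 0.029 against p53+/+ and *Epor* -0.14 against p53-/-. With limma-voom, *Flt3* in p53R248W/+ and *Il1r1* in p53-/- had -0.016 and -0.019 against p53+/+. Leaving out a library, values in p53R248W/+ against p53+/+ ran from -0.25 to 0.14 for *Kit*, -0.19 to 0.19 for *Flt3*, -0.11 to 0.65 for *Csf1r*, -0.16 to 0.27 for *Csf3r*, -0.063 to 0.36 for *Il6st* and -0.22 to 0.26 for *Il1r1*. In p53-/- against p53+/+ they ran from -0.087 to 0.30 for *Kit*, -0.26 to 0.050 for *Tek* and -0.11 to 0.20 for *Il1r1*, and in p53R248W/+ against p53-/- from -0.37 to 0.021 for *Kit*, -0.13 to 0.51 for *Epor* and -0.23 to 0.24 for *Il1r1*. With 3 libraries a genotype, receptor differences had standard errors of 0.20 to 0.45. The 95% intervals reach further than 1 standard error, so larger changes also could not be told from none. An example is *Csf1r* in p53R248W/+ against p53-/-, at 0.73 with an interval from -0.26 to 1.72.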
